A study of Homo sapiens with 6 samples.

Results

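The 10 genes described here encode transcription factors of the ETS family, among them the DNA-binding partners of IRF4: SPI1, SPIB, SPIC, ETS1, ETS2, ELF1, ELF4, FLI1, ETV6 and GABPA. They were chosen by name, as the rows of a gene count table whose Entrez identifier carries these symbols, and all 10 of the 10 were found among the 23459 genes of the table. All 10 also passed the filter on low counts, which kept 12079 genes for testing.

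ETS factors share a DNA-binding domain that recognises a GGAA core. IRF4, a regulator of activated B cells and plasma cells, binds DNA weakly alone, and the SPI1 product PU.1 and the SPIB product Spi-B recruit it to ETS-IRF composite elements, where a GGAA core stands beside an IRF half-site. Spi-C, encoded by SPIC, is the third member of the PU.1 subfamily. The remaining members act in B cells mostly outside this partnership, as activators (ETS1, ETS2, ELF1, ELF4, FLI1), as a repressor (ETV6) or as a regulator of mitochondrial genes (GABPA).

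The cells were Raji, a human B cell line established from Burkitt's lymphoma. RNA-seq covered 3 libraries of cells infected with lentivirus carrying human IRF4 cDNA (IRF4OE) and 3 of cells infected with the empty vector (control). All 6 libraries shared the infection of 5 days and the selection with puromycin at 3 µg/ml for 7 days. The labels do not say whether replicates were separate infections or cultures, so p-values reflect only how much these libraries vary, and that variation may be technical. In bulk RNA, fewer cells carrying a transcript and less of it per cell cannot be told apart.

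Library totals were 33588248 to 46210702 counts in IRF4OE and 27681979 to 41510523 counts in control libraries. IRF4 itself was at 150, 120.5 and 125 CPM (counts scaled to the library size) in IRF4OE replicates 1, 2 and 3, against 1.02, 1.38 and 1.37 CPM in control replicates 1, 2 and 3 (log2 fold change 6.72, edgeR adjusted p = 3.79e-05). Reads of the vector's IRF4 and of the endogenous gene were not separated. Of the 10 B cell markers, all were tested and 0 were called by edgeR, DESeq2 or limma-voom (2 at an unadjusted p under 0.05, both higher). Their log2 fold changes were below 0 in 7 and above 0 in 3, with a median of -0.21. Of all 12079 genes tested, these 3 tools called 382 (3.16%), 752 and 362. Without IRF4OE replicate 1 edgeR called 8 of the 10, against 45.0% of all genes tested in that fit. The 10 markers summed to 4639 to 5825 CPM in IRF4OE and 4904 to 5874 CPM in control libraries. The libraries also differed within groups along an axis holding 74.3% of the variance around the group means. IRF4OE replicates 2 and 3 with control replicate 1 lay on 1 side of it (side A), and IRF4OE replicate 1 with control replicates 2 and 3 on the other (side B). The difference within each side is given below beside each member.

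SPIC rose with IRF4 overexpression, and the other 9 members did not pass the test. In edgeR's quasi-likelihood test with Benjamini-Hochberg adjustment over all genes tested, a gene was called at an adjusted p under 0.05, which held for 1 of the 10 members, against 3.16% of all genes tested. The called member was higher, as were 2.98% of all genes tested, and 0 members were lower. At an unadjusted p under 0.05 there were 2 members, SPIC and ELF1. DESeq2 and limma-voom also called 1 member each, beside 752 and 362 of all genes tested. Of the 9 members not called, 6 had a log2 fold change below 0 and 3 above, and the median over the 10 members was -0.11, beside 0.0073 over all genes tested. In 3 members, SPIC, ETS2 and ELF1, the CPM values of the groups did not overlap, as was the case for 25.4% of all genes tested.

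**Figure D1:**
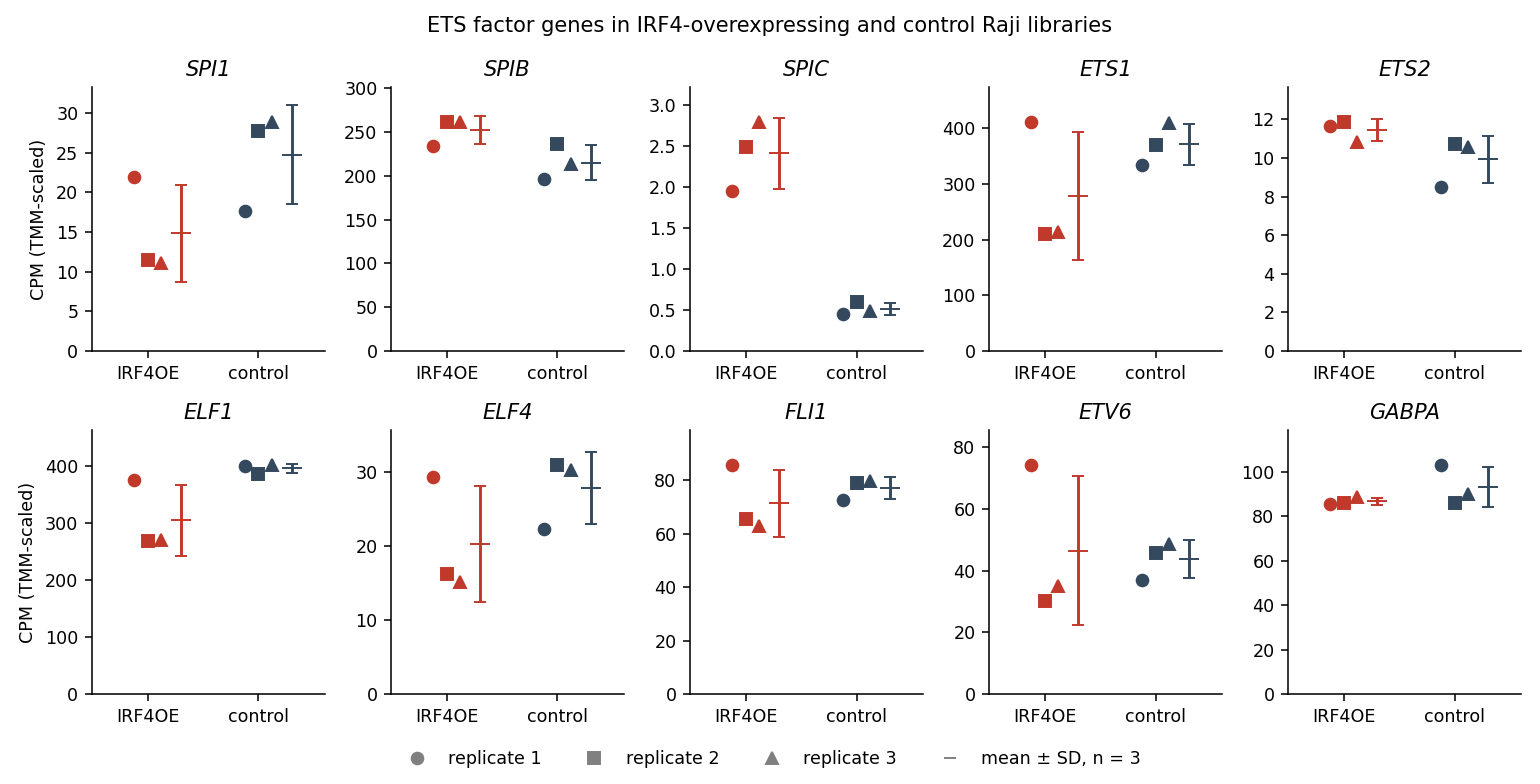
CPM of the 10 ETS factor genes in each library (vertical axes, linear, each from 0), with IRF4OE left of control, marker shapes for replicates 1 to 3 and bars for the mean ± SD of 3 libraries. The SPIC panel is the one with a wide gap between groups, 1.95 to 2.80 CPM in IRF4OE against 0.448 to 0.595 CPM in control libraries, while in SPI1, ETS1, ELF1, ELF4, FLI1 and ETV6 IRF4OE replicate 1 stands well above IRF4OE replicates 2 and 3.

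SPIC (Entrez gene 121599) is known from the mouse, where Spi-C directs the development of the iron-recycling macrophages of the spleen and can oppose PU.1 in B cells. It had 67, 92 and 135 counts in IRF4OE replicates 1, 2 and 3, against 18, 16 and 18 counts in control replicates 1, 2 and 3. Relative to library size this was 1.95, 2.48 and 2.80 CPM in IRF4OE libraries and 0.448, 0.595 and 0.492 CPM in control libraries. Every IRF4OE library lay above every control library, and the lowest IRF4OE value was IRF4OE replicate 1. The rise was 4.76-fold with a 95% interval of 3.32 to 6.82 (log2 fold change 2.25, standard error 0.22, edgeR adjusted p = 0.00365). By fold, SPIC stood in place 102 of the 360 genes called higher. Its level stayed low in both groups, and the control values rest on fewer than 20 counts per library, which limits the precision of the fold. The call held without each library in turn (log2 fold change 2.13 to 2.37, edgeR adjusted p at most 0.0329), and the difference was 2.56 within side A and 1.85 within side B.

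The start of SPIC is shown because this was the member that rose. The 250 bases before the RefSeq start of SPIC, on the plus strand at chr12:101475086-101475335 of GRCh38.p14 and written 5′ to 3′, hold 1 match to the core of the interferon-stimulated response element, GAAA followed by any 2 bases and GAAA again, printed in capitals:
SPIC upstream: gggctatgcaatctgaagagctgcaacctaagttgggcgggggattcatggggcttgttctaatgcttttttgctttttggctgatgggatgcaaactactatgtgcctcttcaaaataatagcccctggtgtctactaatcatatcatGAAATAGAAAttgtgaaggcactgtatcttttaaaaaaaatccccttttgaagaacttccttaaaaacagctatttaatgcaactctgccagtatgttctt
The match spans positions -101 to -92, where -1 is the base before the start, and this core is of a kind that IRF proteins can bind. Promoter windows of 300 bases, 250 before and 50 after a start, were at hand for 7 of the 10 members in 12 windows (SPIB, SPIC, ETS2, ELF1, ELF4, ETV6 and GABPA). On either strand, this core was found in the SPIC window alone among these 12, against 3.57% of 35116 RefSeq windows. The ETS-IRF composite element, GGAA followed by any 2 bases and GAAA, was in 0 of the 12 (2.82% of RefSeq windows), and the PU.1 core GAGGAAGT was in 1 ETS2 window, at positions 4 to 11 counted from 0 at the start base (2.59% of RefSeq windows). No searched motif overlapped another in these windows. These are matches of letters in a short window, and binding was not measured.

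The 2 classical partners of IRF4 stood on opposite sides of 0 and did not pass the test. SPI1 (Entrez gene 6688), whose product PU.1 drives myeloid and B cell development, was at 21.9, 11.5 and 11.1 CPM in IRF4OE replicates 1, 2 and 3, against 17.7, 27.7 and 28.9 CPM in control replicates 1, 2 and 3. IRF4OE replicates 2 and 3 lay below every control library, while IRF4OE replicate 1 lay between control replicate 1 and the other control libraries. The log2 fold change was -0.74 (95% interval -1.48 to 0.0037, edgeR adjusted p = 0.258). Within side A it was -0.64 and within side B -0.37, so SPI1 lay below control on both. Without IRF4OE replicate 1 it was -1.14 and passed (edgeR adjusted p = 0.00242), and without any other library it was -0.93 to -0.55 and did not pass.

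SPIB (Entrez gene 6689), which encodes the B cell and plasmacytoid dendritic cell factor Spi-B, was at 234, 262 and 261 CPM in IRF4OE replicates 1, 2 and 3, against 196, 236 and 213 CPM in control replicates 1, 2 and 3. The groups overlapped narrowly, since control replicate 2 lay just above IRF4OE replicate 1. The log2 fold change was 0.23 (95% interval -0.014 to 0.47, edgeR adjusted p = 0.272), with 0.41 within side A and 0.058 within side B. Without IRF4OE replicate 1 it was 0.27 and passed (edgeR adjusted p = 0.0339). Per kilobase of gene width, SPIB exceeded SPI1 by 6.26, 13.4 and 13.7 times in IRF4OE replicates 1, 2 and 3, against 6.53, 4.99 and 4.33 times in control replicates 1, 2 and 3. This ratio was high in IRF4OE replicates 2 and 3 only, and IRF4OE replicate 1 lay within the control range.

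Of the ETS and FLI members, which activate genes of lymphocytes and blood precursors, none was called. ETS1 (Entrez gene 2113), which restrains plasma cell differentiation in mouse B cells, was at 411, 209.5 and 214 CPM in IRF4OE replicates 1, 2 and 3, against 334, 369.6 and 408 CPM in control replicates 1, 2 and 3. The IRF4OE libraries straddled the control range, with replicate 1 above all controls and replicates 2 and 3 below them. The log2 fold change was -0.41 (95% interval -1.05 to 0.22, edgeR adjusted p = 0.387), and its sign differed between the sides, -0.65 within side A and 0.081 within side B. FLI1 (Entrez gene 2313), a factor of B cells and megakaryocytes, was at 85.8, 65.5 and 62.9 CPM in IRF4OE libraries, against 72.5, 79.0 and 79.8 CPM in control libraries. Its pattern was that of ETS1 at a smaller size, with a log2 fold change of -0.11 (95% interval -0.44 to 0.21, edgeR adjusted p = 0.623), -0.18 within side A and 0.11 within side B. ETS2 (Entrez gene 2114), the close relative of ETS1, was at 11.7, 11.9 and 10.8 CPM in IRF4OE libraries, against 8.51, 10.7 and 10.6 CPM in control libraries. The groups did not overlap, but the gap between IRF4OE replicate 3 and control replicate 2 was small, and the log2 fold change of 0.21 did not pass (95% interval -0.092 to 0.51, edgeR adjusted p = 0.364). Within side A the ETS2 difference was 0.41, and within side B it was 0.13. Without IRF4OE replicate 1, ETS1 and FLI1 passed at log2 fold changes of -0.82 and -0.28 (edgeR adjusted p = 0.000388 and 0.0275), and ETS2 at 0.19 did not (edgeR adjusted p = 0.285).

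The ELF members stood lower in IRF4OE replicates 2 and 3 and near control in IRF4OE replicate 1. ELF1 (Entrez gene 1997), an activator of lymphocyte genes, was at 375, 268 and 269.8 CPM in IRF4OE replicates 1, 2 and 3, against 399, 386 and 402 CPM in control replicates 1, 2 and 3. The groups did not overlap and the control libraries lay close together, but the log2 fold change of -0.38 did not pass after adjustment (95% interval, unadjusted, -0.72 to -0.035, edgeR adjusted p = 0.223). ELF4 (Entrez gene 2000), an activator of interferon and natural killer cell genes, was at 29.3, 16.3 and 15.2 CPM in IRF4OE libraries, against 22.3, 31.0 and 30.3 CPM in control libraries. IRF4OE replicate 1 lay within the control range, and the log2 fold change was -0.46 (95% interval -1.11 to 0.19, edgeR adjusted p = 0.358). Within side A the differences were -0.57 for ELF1 and -0.51 for ELF4, and within side B -0.071 and -0.062. Without IRF4OE replicate 1 both passed, at -0.57 and -0.84 (edgeR adjusted p = 0.00041 and 0.00262).

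ETV6 (Entrez gene 2120), the repressor TEL that is a frequent fusion partner in leukaemia, was at 74.4, 30.1 and 35.2 CPM in IRF4OE replicates 1, 2 and 3, against 37.0, 45.7 and 48.6 CPM in control replicates 1, 2 and 3. The IRF4OE libraries lay on both flanks of the control range, and the log2 fold change was 0.088 with the widest interval of the 10 members, -0.71 to 0.89 (edgeR adjusted p = 0.883). It was -0.18 within side A and 0.66 within side B, and without IRF4OE replicate 1 it turned to -0.43 and passed (edgeR adjusted p = 0.0269). GABPA (Entrez gene 2551), the DNA-binding subunit of GABP, was at 85.5, 86.1 and 88.5 CPM in IRF4OE libraries, against 103, 86.2 and 90.1 CPM in control libraries. Its log2 fold change was -0.10 (95% interval -0.34 to 0.13, edgeR adjusted p = 0.53). The interval leaves room for a fall by 0.34 or a rise of 0.13 on the log2 scale. Within side A, which holds 1 control library, GABPA had -0.24, and within side B it had -0.045. It had -0.032 without control replicate 1 and -0.16 without control replicate 2, and did not pass without any single library.

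SPI1, SPIB, SPIC and ETS2 overlap 0 other RefSeq genes in GRCh38.p14, whereas ETS1, ELF1, ELF4, FLI1, ETV6 and GABPA each overlap 1 to 4, GABPA among them with the ATP synthase gene ATP5PF. How reads in such overlaps were assigned is not given in the sources used here.

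The members also differed between the sides of the library axis. In a fit with the side as a term, 8 members were lower and 2 higher on side A than on side B, beside 5949 lower and 6130 higher of all genes tested. The side difference on the log2 scale was -0.82 for SPI1, -0.77 for ETV6, -0.68 for ELF4 and -0.59 for ETS1, and 0.25 for SPIC. Its median size over the 10 members was 0.26, close to 0.23 over all genes tested. With the side as a term, 2 members were called (SPIC, at 2.18, and SPI1, at -0.50 with edgeR adjusted p = 0.0212), against 9.09% of all genes tested. Within side A 8 members were called, all but FLI1 and ETV6, against 43.0% of all genes, and within side B 3 members (SPIC, SPI1 and ETV6), against 9.84%. Without IRF4OE replicate 1, 2 members were called higher and 6 lower, against 45.0% of all genes called in either direction. In that fit both IRF4OE libraries lie on side A and 2 of the 3 control libraries on side B, so group and side largely coincide. Because the sides were defined on these same libraries, p-values of fits that use them are too small. Each side holds only 1 library of a group, whose spread is taken from the other libraries.

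**Figure D2:**
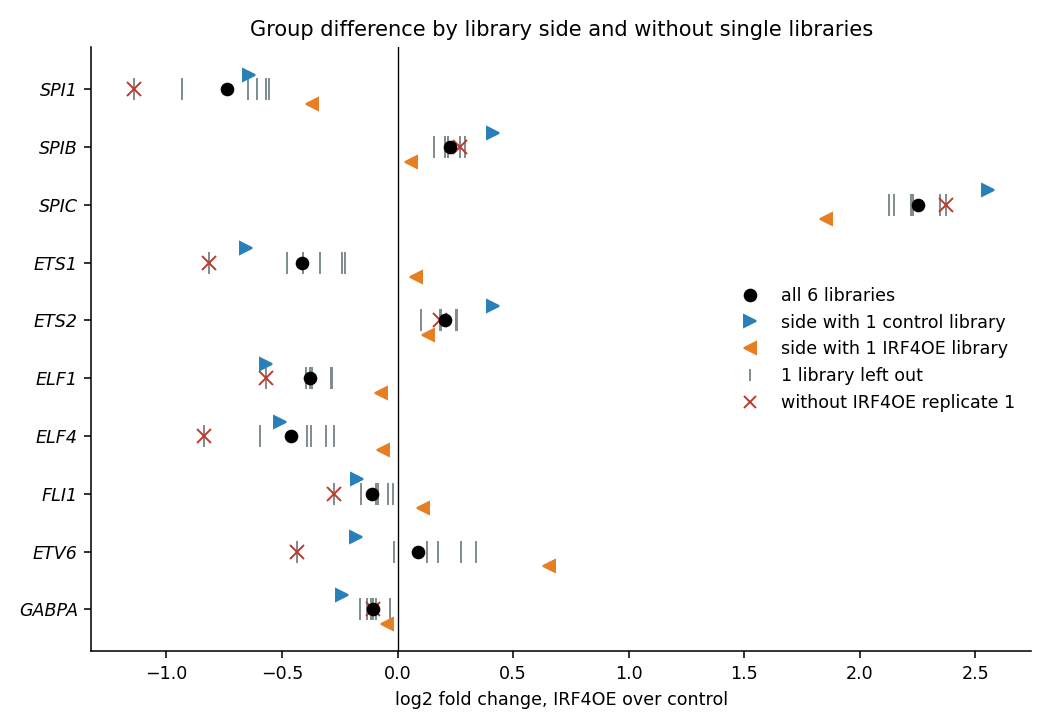
Log2 fold change of IRF4OE over control (horizontal axis) for the 10 members, with black points for all 6 libraries, triangles for the differences within side A (1 control library) and side B (1 IRF4OE library), ticks for fits without 1 library and crosses for the fit without IRF4OE replicate 1. SPIC stays between 1.85 and 2.56, whereas ETV6 runs from -0.43 to 0.66 and ETS1 and FLI1 change sign between the sides.

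Per kilobase of gene width, the 10 members gave most of the ETS family signal, 85.04% to 85.71% in IRF4OE and 84.78% to 85.42% in control libraries of the summed level of all 28 ETS genes. ELF1, SPIB and ETS1 led, with 78.9 ± 16.0, 71.4 ± 4.55 and 50.2 ± 20.8 CPM per kilobase in IRF4OE libraries and 103 ± 2.14, 60.9 ± 5.59 and 66.9 ± 6.71 CPM per kilobase in control libraries (SD, n = 3 each). In IRF4OE libraries the ranges of ELF1 and SPIB overlapped, and so did those of SPIB and ETS1. In control libraries ELF1 lay clear of ETS1, and ETS1 and SPIB overlapped. All 3 lay clear of GABPA and FLI1, which followed at 16.5 ± 0.31 and 15.5 ± 2.72 CPM per kilobase in IRF4OE and 17.7 ± 1.70 and 16.7 ± 0.862 CPM per kilobase in control libraries and overlapped each other in both groups. Of the other members, SPI1, ETV6 and ELF4 came next, at 7.16 ± 2.95, 7.74 ± 4.03 and 4.74 ± 1.84 CPM per kilobase in IRF4OE and 12.0 ± 2.98, 7.28 ± 1.01 and 6.52 ± 1.13 CPM per kilobase in control libraries. Their ranges overlapped in IRF4OE libraries. ETS2 followed at 2.81 ± 0.135 CPM per kilobase in IRF4OE and 2.44 ± 0.301 CPM per kilobase in control libraries.

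SPIC was the lowest member, at 2.11 ± 0.377 CPM per kilobase in IRF4OE and 0.449 ± 0.0662 CPM per kilobase in control libraries (SD, n = 3 each). Among all 28 ETS genes it stood in place 15 in IRF4OE and place 17 in control libraries. SPI1 exceeded SPIC by 6.19, 2.54 and 2.19 times per kilobase in IRF4OE replicates 1, 2 and 3, against 21.7, 25.6 and 32.3 times in control replicates 1, 2 and 3. Every IRF4OE library thus had a smaller gap between the 2 genes than every control library. SPIC still made up 0.477% to 0.896% of the summed ETS level in IRF4OE and 0.12% to 0.149% in control libraries.

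**Figure D3:**
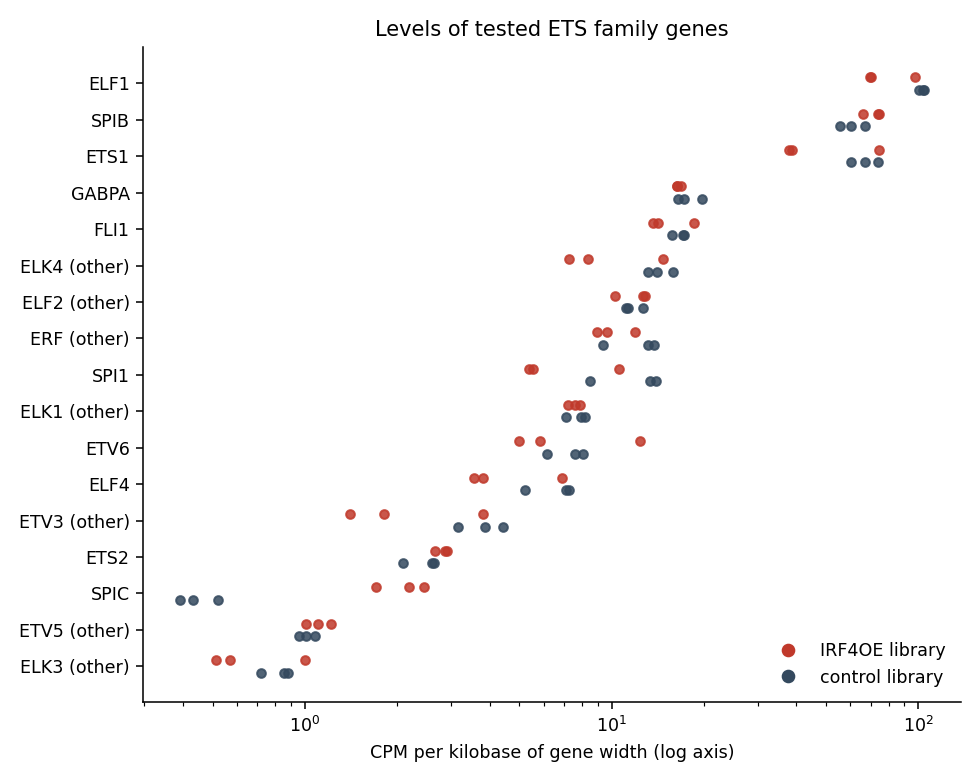
Level of the 17 tested ETS family genes in CPM per kilobase of gene width (horizontal log axis), 1 point per library, with IRF4OE above control for each gene and genes outside the 10 members marked as other. SPIC is the gene whose IRF4OE points (1.71 to 2.45) stand farthest from its control points (0.393 to 0.522).

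Of the remaining 18 ETS genes, 0 were called by edgeR, DESeq2 or limma-voom, and 0 had an unadjusted p under 0.05 in edgeR. Of these, 7 were tested and 11 were too low, at no more than 0.54 CPM in any library, with 3 (ELF5, ETV3L and FEV) at 0 in all 6. Of the 17 ETS genes tested in all, SPIC was therefore the 1 called. Among all 12079 genes tested, edgeR called 382 (3.16%), DESeq2 752 and limma-voom 362. The 3 most abundant of the 18 per kilobase were ELK4, a serum response cofactor, with a log2 fold change of -0.50 (edgeR adjusted p = 0.316), ELF2, with 0.026 (edgeR adjusted p = 0.901), and ERF, a repressor, with -0.25 (edgeR adjusted p = 0.422). Of the 7 tested, 3 were called without IRF4OE replicate 1, against 45.0% of all genes tested in that fit. ELK4 had -0.74 within side A and -0.021 within side B, and passed without IRF4OE replicate 1 at -0.89 (edgeR adjusted p = 0.000388). ELF2 changed sign within side B, with the side as a term and without 4 of the 6 libraries. ETV7, a relative of ETV6 known as interferon-inducible and chosen for mention after its values were seen, was too low to test, with 15, 20 and 12 counts in IRF4OE replicates 1, 2 and 3, against 5, 4 and 5 counts in control replicates 1, 2 and 3.

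**Figure D4:**
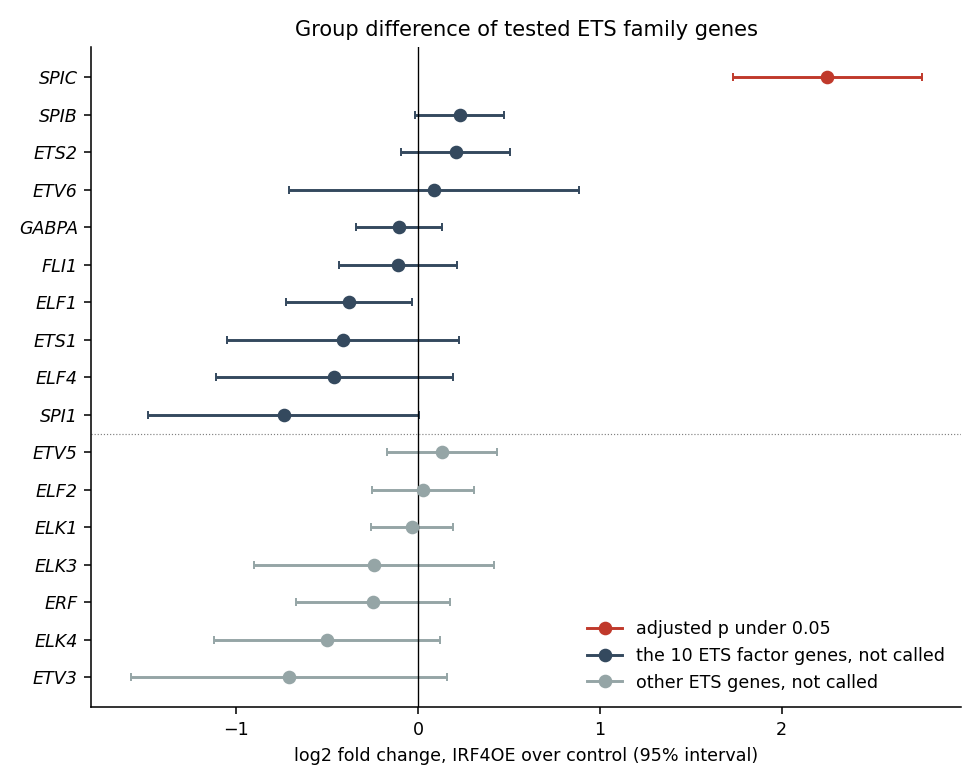
Log2 fold change of IRF4OE over control with its unadjusted 95% interval for the 10 members (above the dotted line) and the 7 other tested ETS genes (below it). SPIC, at 2.25, is the single gene called, and the other points lie between -0.74 and 0.23.

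Genes that work with ETS factors or are described as their targets were compared from lists chosen with earlier results of these data known. Of 10 cofactors and corepressors, all tested, 0 were called by edgeR, DESeq2 or limma-voom, beside 3.16% of all genes tested in edgeR. There was 1 at an unadjusted p under 0.05, and the median log2 fold change was -0.34. Without IRF4OE replicate 1 edgeR called 7 of the 10, against 45.0% of all genes tested in that fit. IRF8, which pairs with PU.1 as IRF4 does, was at 200.5 ± 14.0 CPM in IRF4OE and 166 ± 2.61 CPM in control libraries (SD, n = 3 each). Its log2 fold change was 0.27 (edgeR adjusted p = 0.173), with no overlap between the groups, and it passed without IRF4OE replicate 1 (0.32, edgeR adjusted p = 0.00514). NCOR1, a corepressor that ETV6 recruits, had -0.66 (edgeR adjusted p = 0.279), with -0.91 within side A and -0.13 within side B, and passed at -1.13 without IRF4OE replicate 1 (edgeR adjusted p = 0.000226). Of 10 GABP targets, all tested, 0 were called by edgeR, DESeq2 or limma-voom, with 0 at an unadjusted p under 0.05 and a median of 0.068. Without IRF4OE replicate 1 edgeR called 4 of the 10, against the same 45.0%. With all 6 libraries, the smallest p-values among the GABP targets belonged to HCFC1, a coregulator of GABP-bound promoters, and to the mitochondrial transcription gene TFB1M. They had log2 fold changes of -0.74 and 0.12 (edgeR adjusted p = 0.342 and 0.434). HCFC1 passed at -1.30 without IRF4OE replicate 1 (edgeR adjusted p = 0.00431).

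Of 7 genes with a described ETS-IRF composite element, 5 were tested, 1 rose and 0 fell, with a median of 0.22. Over all genes tested, 3.16% were called in either direction. Without IRF4OE replicate 1 all 5 were called, against 45.0% of all genes tested in that fit. Log2 fold changes of ISG15, CIITA, MS4A1, CYBB and TLR4 were 1.36, 0.52, 0.27, 0.24 and -0.71 within side B. Within side A they were 2.07, -0.17, 0.22, 0.15 and -0.39. The riser was ISG15, the ubiquitin-like interferon effector, at 48.2, 82.7 and 75.1 CPM in IRF4OE replicates 1, 2 and 3, against 18.8, 20.4 and 17.2 CPM in control replicates 1, 2 and 3 (log2 fold change 1.87, standard error 0.21, edgeR adjusted p = 0.00607). Without control replicate 1 its adjusted p was 0.0502 at a log2 fold change of 1.85. TLR4, the endotoxin receptor, was at 5.17 ± 0.504 CPM in IRF4OE and 7.45 ± 0.816 CPM in control libraries (log2 fold change -0.52, edgeR adjusted p = 0.114), and passed by DESeq2 (adjusted p = 0.0349) and without IRF4OE replicate 1 (edgeR adjusted p = 0.0232).

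Of 17 described targets of PU.1 or Spi-B in B cells, 16 were tested, 1 rose and 1 fell, with a median of 0.014. Over all genes tested, 3.16% were called in either direction. Without IRF4OE replicate 1, 8 of the 16 were called, against 45.0% of all genes tested in that fit. CD40, the receptor for T cell help, was at 90.0, 102 and 93.5 CPM in IRF4OE replicates 1, 2 and 3, against 70.8, 66.2 and 64.7 CPM in control replicates 1, 2 and 3 (log2 fold change 0.50, edgeR adjusted p = 0.0389). PTPRC, the receptor phosphatase CD45, was at 242, 207 and 220.1 CPM in IRF4OE libraries, against 338, 314 and 318 CPM in control libraries (log2 fold change -0.53, edgeR adjusted p = 0.0295). Neither pair of groups overlapped, but both calls were lost without any 1 library other than IRF4OE replicate 1, with edgeR adjusted p of 0.0857 to 0.218 for CD40 and 0.153 to 0.192 for PTPRC.

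The Spi-C-linked list held 4 genes of mouse splenic macrophages and BACH1, which represses Spic in the mouse. Of these, 2 were tested and 1 rose, where 2.98% of all genes tested were called higher. VCAM1, an adhesion molecule that mouse splenic macrophages need Spi-C to express, was at 10.1, 13.3 and 12.6 CPM in IRF4OE replicates 1, 2 and 3, against 4.36, 5.06 and 4.54 CPM in control replicates 1, 2 and 3. Every IRF4OE library lay above every control library, at a log2 fold change of 1.37 (standard error 0.14, edgeR adjusted p = 0.00472), and the call held without each library in turn (1.30 to 1.47). BACH1 had 0.19 (edgeR adjusted p = 0.325). HMOX1, SLC40A1 and CD163, the iron and haem genes of these macrophages, stayed at or below 0.224 CPM in all libraries, with SLC40A1 at 0 in all 6.

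**Figure D5:**
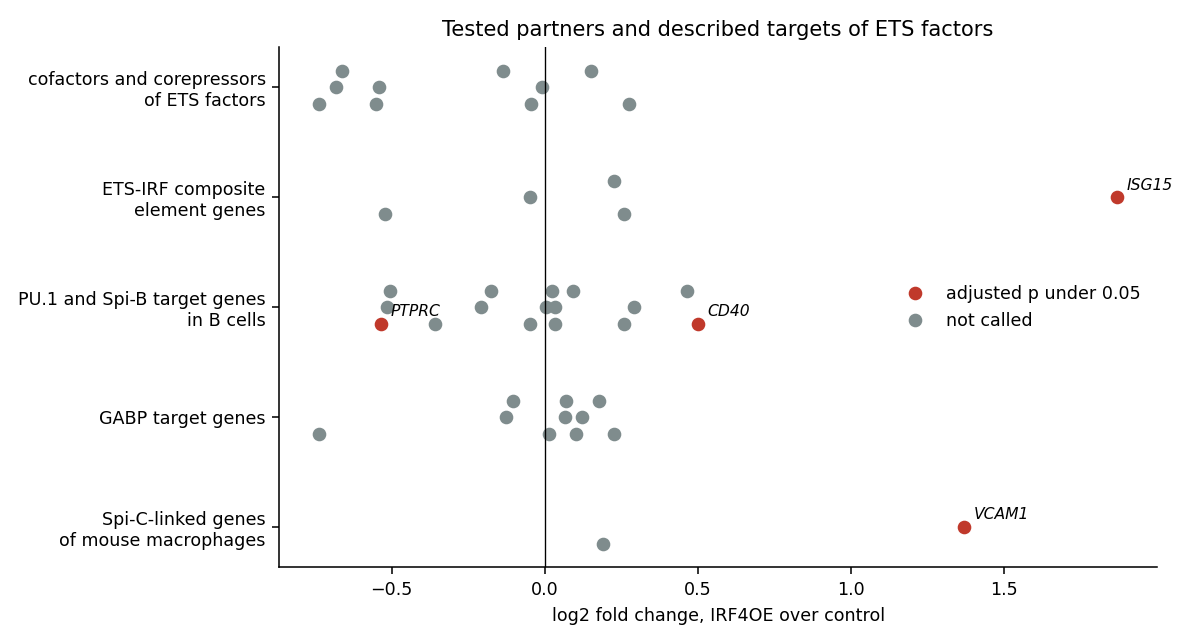
Log2 fold change of IRF4OE over control for the tested genes of 5 lists of partners and described targets, with called genes in red. ISG15 (1.87), VCAM1 (1.37) and CD40 (0.50) were called higher and PTPRC (-0.53) lower.

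Because SPIC, SPI1 and ETS1 are also expressed by other blood cells, markers of those cells are given beside them. Of 12 myeloid markers, 4 were tested, all with a log2 fold change above 0, and edgeR and limma-voom called 1 each and DESeq2 2. Over all 12079 genes tested, edgeR called 382 (3.16%), limma-voom 362 and DESeq2 752. The count of myeloid markers was also 2 with the side as a term and without IRF4OE replicate 1, against 9.09% and 45.0% of all genes. The myeloid list summed to 5.64 to 9.21 CPM in IRF4OE and 3.06 to 3.31 CPM in control libraries. ITGAM, an integrin subunit of myeloid cells, was called by edgeR, at 2.48 ± 0.220 CPM in IRF4OE and 0.652 ± 0.0625 CPM in control libraries (SD, n = 3 each). Its log2 fold change was 1.92 (edgeR adjusted p = 0.00256). CSF1R, the macrophage growth factor receptor and a PU.1 target, was at 4.07, 1.22 and 1.39 CPM in IRF4OE replicates 1, 2 and 3, against 0.324, 0.521 and 0.438 CPM in control replicates 1, 2 and 3 (log2 fold change 2.38, 95% interval 1.05 to 3.71, edgeR adjusted p = 0.0846). These groups did not overlap, and the highest library was IRF4OE replicate 1. LYZ and CD68, of granules and lysosomes of myeloid cells, had log2 fold changes of 0.18 and 0.20 (edgeR adjusted p = 0.667 and 0.623). Of the 8 untested markers, MPO, S100A9 and FCGR1A were at 0 in all 6 libraries and the other 5 reached at most 0.249 CPM. Of 12 T and natural killer cell markers in the table, 1 was tested (LCK) and 0 were called by edgeR, DESeq2 or limma-voom (1 at an unadjusted p under 0.05), with sums of 43.3 to 59.8 CPM in IRF4OE and 34.6 to 41.15 CPM in control libraries, and CD2, CD8A and GZMB were at 0 in all 6. Of 10 kidney and epithelial markers, chosen for the 293T packaging cells, 2 were tested and 0 called by edgeR (1 by DESeq2, 0 by limma-voom), with sums of 58.05 to 65.7 CPM in IRF4OE and 45.5 to 55.8 CPM in control libraries, mostly VIM, and EPCAM, KRT18, CDH2 and LHX1 at 0 in all 6. The part of these markers in the rise of SPIC was not tested.

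The genes whose log2 CPM ran most like SPI1 over the 6 libraries were CD79A (Pearson r = 0.999), GPI (0.998) and ZMYND8 (0.998), out of 9492 genes compared, all averaging 5 CPM or more. CD79A, a B cell receptor subunit and a described PU.1 target, was at 202, 148 and 145 CPM in IRF4OE replicates 1, 2 and 3, against 178, 227 and 229 CPM in control replicates 1, 2 and 3. For SPIB they were ZGPAT (0.999), PEX16 (0.992) and WASH2P (0.989). These are the highest of 9492 values over 6 libraries that share the library axis, and are given as a description.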

How the data were processed

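The deposited table holds whole-number read counts per Entrez gene, 1 column per library, and a gene width. Its control columns carry the name WT, although per the labels those cells received the empty vector. The builds mm9 and hg19 are both listed, per the submitters' processing notes. The aligner, counting tool, annotation and strand setting are not given in the sources used here. Symbols and promoter sequences came from RefSeq (GRCh38.p14), matching 23308 of 23459 rows, and no gene coordinates were used with the counts.

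Counts were compared with edgeR 4.0.16 (R 4.3.3): TMM scaling, filterByExpr, the quasi-likelihood F-test (two-sided) with group as the only term, adjusted over 12079 genes. CPM used TMM-scaled library sizes. Standard errors were the absolute log2 fold change divided by the square root of F, and the 95% intervals are unadjusted. Alternatives used DESeq2 1.42.0, limma-voom (limma 3.58.1), other scalings, filters and designs, and leaving out each library. The fit was first run on simulated counts, drawn gene by gene without a shared library axis. That run does not show how the fit behaves on libraries that differ along such an axis. No library was a copy of another (chi-square per gene 6.65 to 199.8 between replicates). The members and lists were chosen with earlier results of these data known. Named were the 10 members, the 3 most abundant other ETS genes, and of each list the called genes or the 2 of smallest p. Also named were IRF4, ETV7, the ETS genes without counts and the remaining tested composite element genes. The untested Spi-C-linked genes, marker genes and the genes running most like SPI1 and SPIB were named as well. Figures used matplotlib 3.10.9.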

Additional observations from a re-analysis of the deposited data

How the results depend on the processing

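SPIC passed in 15 of 16 alternatives and kept its direction in all 16 (log2 fold change 1.85 to 2.56). The exception was the fit with the replicate number as a block, where it had 2.23 (edgeR adjusted p = 0.0729), 0 members and 0 genes of the other lists were called, and 3 genes were called in the whole table. Same-numbered libraries deviated apart (r = -0.65, -0.22 and -0.47 for numbers 1, 2 and 3). These values cannot settle whether the numbers pair the samples, since the library axis holds 74.3% of the variance around the group means. The labels do not say whether same-numbered libraries share a culture or infection. Members called numbered 2 with the library side as a term, 8 within side A, 3 within side B and 1 to 8 without single libraries. Among all genes tested, 382 were called, 94.2% of them higher, against 752 with DESeq2 (76.7% higher), 1098 with the side as a term (64.6% higher), 5192 within side A, 1189 within side B and 123 to 5507 without single libraries. Genes of the other lists called numbered 4, against 24 within side A, 8 within side B and 1 to 28 without single libraries. The 28 came from the fit without IRF4OE replicate 1. These larger counts came from fits that also called more of the whole table. Of all genes tested, 3.16% were called with all 6 libraries and 43.0% within side A. The share was 9.84% within side B and 45.0% without IRF4OE replicate 1. ETV6 turned to -0.0249 with limma-voom, -0.0301 with the block and -0.18 within side A, and ran from -0.43 to 0.34 without single libraries. ETS1 turned to 0.0805 and FLI1 to 0.11 within side B. ELF2 turned to -0.0597 with the side as a term and -0.13 within side B, and ran from -0.0286 to 0.11 without single libraries. The cause of these changes was not tested. Library sizes alone moved the median of all genes by 0.0956, and no member changed sign. Genes under about 1 CPM, ETV7 among them, are limited by depth.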
